A study of Mus musculus with 6 samples.

Results

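The genes described here encode 6 nuclear receptors: Ppara, Ppard and Pparg, the peroxisome proliferator-activated receptors (PPARs), and Rxra, Rxrb and Rxrg, the retinoid X receptors (RXRs). They were chosen by name, and every probe set annotated to them was taken, which gave 6 probe sets, 1 per gene, of the 34760 on the array and the 19937 genes with a probe set of their own. Expression was measured in inguinal white adipose tissue, the fat under the skin of the groin, of 3 ATF7 KO mice and 3 WT mice, with 1 Affymetrix array per mouse. The KO mice and their WT littermates were C57BL/6 males aged 5 weeks, bred from heterozygous Atf7 parents under specific-pathogen-free conditions, and no treatment is named for either group. ATF7 KO mice lack the transcription factor ATF7. Which stretch of Atf7 is deleted, and in which cells, is not stated in the sources used here. The depot was sampled whole, so fat cells, their precursors, vessels, immune cells and any lymph node or muscle taken along contribute RNA. In such bulk tissue, fewer cells of a type and less RNA per cell cannot be told apart.

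PPARs bind DNA as pairs with an RXR at repeats of a short DNA hexamer and switch on lipid genes when fatty acids or their derivatives occupy them. PPARγ drives the formation of fat cells and keeps mature ones storing lipid. PPARα drives fatty acid oxidation in liver, heart and brown fat, and in white depots it is a mark of heat-producing beige cells, while PPARδ is found in most tissues and favours fatty acid use in muscle. Of the RXRs, RXRα is the main partner in liver and fat, RXRβ is found in most tissues, and RXRγ is best known from muscle and brain.

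The values are log2 expression values, and a difference of 1 is a factor of 2. Each probe set has its own brightness, so values are compared between mice and not between genes. Adipocyte markers were bright on all 6 arrays, and Adipoq lay between 12.24 and 12.68. The targeted gene followed the labels at probe set 10433032 of Atf7, at 6.22 to 6.53 in KO and 8.95 to 9.20 in WT (adjusted p = 0.00658 over all probe sets, limma), while its other probe set, 10433034, differed by -0.17 (adjusted p = 0.730). The brighter 10433034 stood for Atf7 in the fit over genes. Arrays differed in other cells of the depot. The mean level of 14 lymphocyte markers, centred on the 6 arrays, was -0.09, 0.69 and -2.70 in KO replicates 1 to 3, against 0.73, 0.54 and 0.84 in the WT replicates. Muscle markers (10 genes) were at 1.52, -1.42 and -1.56 in KO and at -1.49, 2.40 and 0.55 in WT. The 5 markers listed for mammary epithelium stood out in WT replicate 2 (1.52, against -0.41 to -0.24 on the other arrays). These are keratin genes and Epcam, which do not tell mammary from other epithelium, and the mice were male. KO replicate 3 therefore stood apart by its low lymphocyte level, and its correlation with the other arrays across probe sets was 0.969 to 0.981, against 0.984 to 0.990 among those. No batch, slide or scan date is stated for the arrays.

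Ppara was the receptor that differed most. Its probe set 10425987 was at 9.44, 8.95 and 9.48 in the KO mice, against 8.58, 7.73 and 7.54 in the WT mice. No WT array reached the lowest KO array, and WT replicate 1 was the WT array nearest to the KO values. The means were 9.29 ± 0.30 in KO and 7.95 ± 0.55 in WT (SD, n = 3 each), which is 2.54-fold higher in KO, a log2 difference of 1.34 with a standard error of 0.28 and a 95% interval of 0.68 to 2.01. The unadjusted p from limma was 0.00200, which ranked Ppara 50 among 19937 genes, but after Benjamini-Hochberg adjustment over all genes p was 0.622, so the difference did not pass the threshold of 0.05. Limma called 0 genes at that threshold in either direction (0% of genes), with 995 higher and 494 lower at an unadjusted p under 0.05, a level called nominal from here on and which is no test passed. Fitted over all 34760 probe sets, 2 were called (background 0.00575%), none of them among the 6 receptor probe sets, and Ppara had an adjusted p of 0.637. Among the 6 receptors, 1 was nominally higher (background 4.99% of all genes) and 0 were nominally lower (background 2.48%). The groups did not overlap for the same gene, Ppara, with KO above WT (background 7.96%), and for no receptor did all KO arrays lie below all WT arrays (background 5.97%).

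The difference of Ppara was measured again with each array left out. It ran from 1.14 without WT replicate 3 to 1.66 without WT replicate 1, with adjusted p between 0.174 and 0.931. Without KO replicate 3, the array with few lymphocyte transcripts, it was 1.25, and with the lymphocyte level as a covariate it was 1.17. With the muscle level as a covariate it was 1.25. The part of lymphocytes and of muscle in the difference was not tested beyond these values. The 3 markers of the classical brown depot, Zic1, Lhx8 and Eva1a, differed by 0.0030, -0.085 and 0.14, with overlapping groups.

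**Figure D1:**
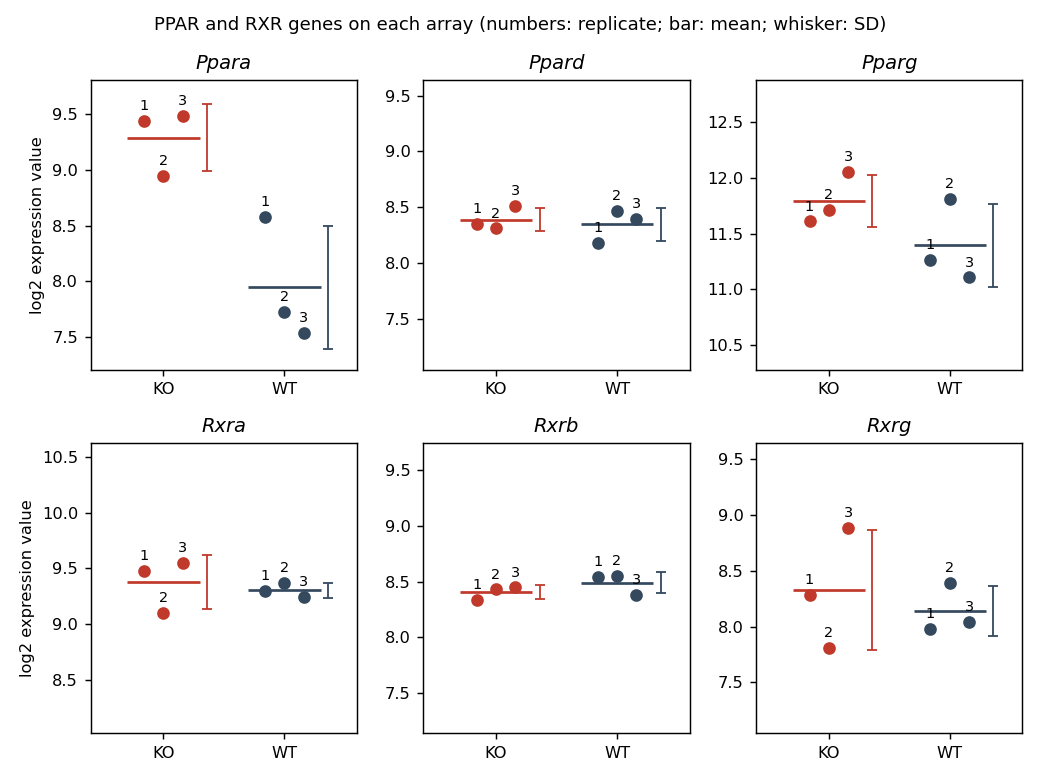
Log2 expression values of the 6 receptor genes on each array, KO left and WT right, with replicate numbers beside the points, bars for means and whiskers for SD (n = 3 each); every panel spans the same range of log2 units. The 3 Ppara points of KO lie at 8.95 to 9.48, above the WT points at 7.54 to 8.58, while the groups overlap in the other 5 panels.

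Pparg was higher in KO on average, but its groups overlapped. Probe set 10540897 was at 11.61, 11.71 and 12.05 in the KO mice, against 11.27, 11.81 and 11.11 in the WT mice. WT replicate 2 lay above KO replicates 1 and 2, and KO replicate 3 was the highest array. The means were 11.79 ± 0.23 in KO and 11.39 ± 0.37 in WT (SD, n = 3 each), a log2 difference of 0.40 (SE 0.20, 95% interval -0.08 to 0.88, 1.32-fold), with an adjusted p of 0.622 from limma. The interval holds 0 and also holds increases of up to 0.88. Without WT replicate 2 the difference was 0.61, without WT replicate 3 it was 0.25, without KO replicate 3 it was 0.27, and with the lymphocyte level as a covariate it was 0.21. The probe set is annotated to the gene and was not placed on its exons, so the isoforms PPARγ1 and PPARγ2, which differ in their first exons, were not measured apart.

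Ppard and the RXR genes differed little between the groups. Ppard (probe set 10443332) was at 8.35, 8.31 and 8.51 in KO and at 8.18, 8.47 and 8.39 in WT, a log2 difference of 0.042 (95% interval -0.22 to 0.30). Rxrb (probe set 10444137) was at 8.34, 8.43 and 8.45 in KO and at 8.54, 8.55 and 8.38 in WT, a difference of -0.085 (95% interval -0.30 to 0.13). For both genes the intervals leave room for a change of about 0.30 in one direction and not for one of the size measured for Ppara. Rxra (probe set 10470446) was at 9.48, 9.10 and 9.55 in KO and at 9.30, 9.37 and 9.24 in WT, a difference of 0.071 (95% interval -0.24 to 0.39). Its KO values spread more (SD 0.24) than its WT values (SD 0.066), with KO replicate 2 below and KO replicates 1 and 3 above all WT arrays. Rxrg (probe set 10351430) had the widest spread among the RXR genes, with 8.29, 7.81 and 8.88 in KO against 7.98, 8.40 and 8.04 in WT, and a difference of 0.19 (95% interval -0.43 to 0.81). Here too KO replicate 2 was the lowest array and KO replicate 3 the highest, and the interval is too wide to place Rxrg. Adjusted p-values from limma were 0.921 for Ppard, 0.883 for Rxra, 0.785 for Rxrb and 0.834 for Rxrg.

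The signs of the small differences rested on single arrays. Without KO replicate 3 the differences were -0.018 for Ppard, -0.017 for Rxra and -0.091 for Rxrg, and with the lymphocyte level as a covariate they were -0.045, -0.083 and -0.24. Rxrb was negative in all settings tried.

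**Figure D2:**
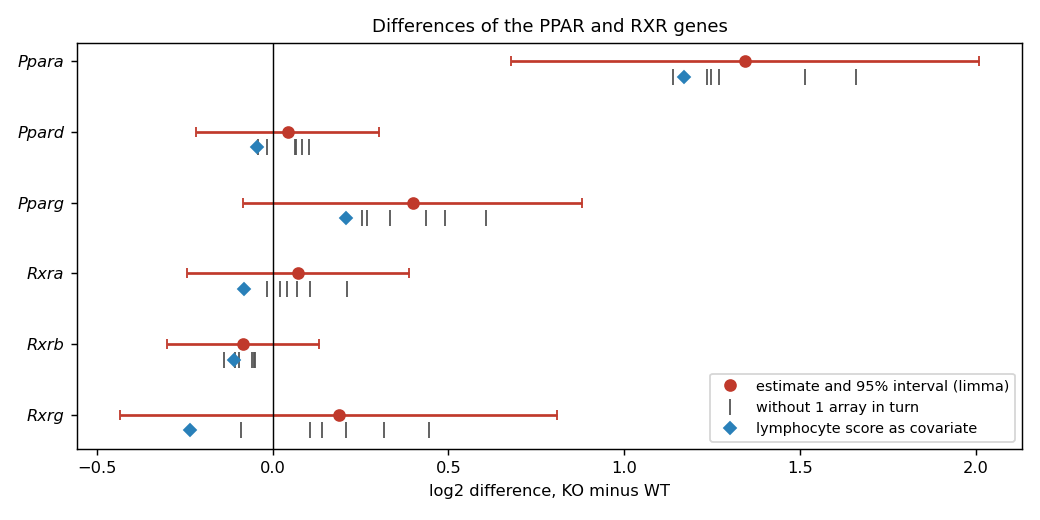
Log2 difference, KO minus WT, of each receptor gene with its 95% interval from limma (red), the 6 values without 1 array in turn (ticks) and the value with the lymphocyte level as a covariate (diamonds). The interval of Ppara runs from 0.68 to 2.01 and its ticks from 1.14 to 1.66, and the intervals of the other 5 genes include 0.

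The contrast of Ppara with Pparg asks whether the oxidative PPAR moved relative to the adipogenic one in the same mouse. On each array the Pparg value was subtracted from the Ppara value, and the change of this difference was read, not its level. It was -2.17, -2.77 and -2.57 in the KO mice, against -2.69, -4.08 and -3.57 in the WT mice. WT replicate 1 lay between KO replicates 3 and 2, so the groups overlapped by 1 array. The means were -2.50 ± 0.30 in KO and -3.45 ± 0.70 in WT (SD, n = 3 each), so Ppara relative to Pparg was 1.93-fold higher in KO, a log2 difference of 0.95. The exact permutation p was 0.2 (two-sided), where 3 mice against 3 cannot give less than 0.1, and the difference was not shown to exceed the spread between mice. It was 0.63 without WT replicate 2, which had both a high Pparg and a low Ppara value, and 1.32 without WT replicate 1.

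Against the other 4 receptors the separation was complete. Ppara relative to Ppard was higher in KO by 1.30 on the log2 scale, relative to Rxra by 1.27, relative to Rxrb by 1.43 and relative to Rxrg by 1.16. For each of these 4 contrasts the lowest KO array exceeded the highest WT array, and the exact permutation p was 0.1, the smallest possible. Adjusted over the 5 contrasts by Benjamini-Hochberg these p-values became 0.125, and that of the contrast with Pparg stayed at 0.2. All contrasts reuse the same Ppara values, which separate the groups by themselves, so they are not independent results. The contrast with Rxra was the most even among the KO mice, at -0.038, -0.15 and -0.065, against -0.72, -1.64 and -1.71 in the WT mice. The contrast with Rxrg separated the groups by little, with 0.601 in KO replicate 3 and 0.597 in WT replicate 1.

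**Figure D3:**
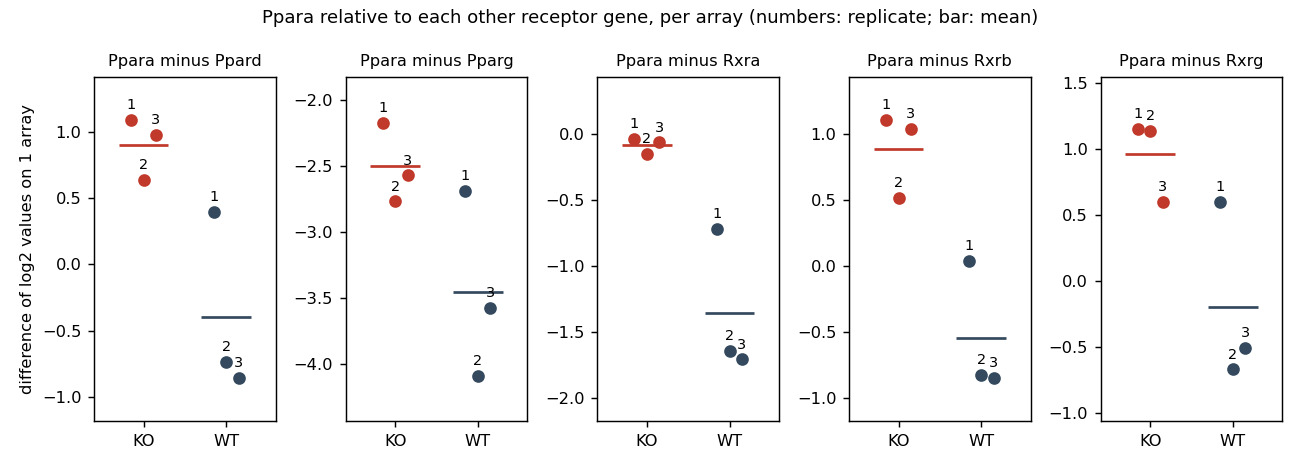
Difference of log2 values between Ppara and each other receptor gene on the same array, KO left and WT right, with replicate numbers and bars for means; all panels span the same range. Only in the Pparg panel do the groups overlap, where WT replicate 1 (-2.69) lies above KO replicate 2 (-2.77).

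The DNA around the start sites of Ppara and Pparg is shown because these 2 receptors carry the contrast and because ATF7 binds the ATF/CRE element. The windows are 300 bases long, 250 before and 50 from the start site, from RefSeq on build GRCm38.p6, on the plus strand, and 11 such windows were listed for the 6 receptor genes. Ppara lies on chromosome 15 and has 1 window, chr15:85735526-85735825. Pparg lies on chromosome 6 and has 3, at chr6:115360894-115361193, chr6:115362099-115362398 and chr6:115421816-115422115, the last of which starts 60922 bases downstream of the first. Capitals mark matches, on either strand, to the CRE core TGACG or to the nuclear receptor hexamer AGGTCA.
Ppara: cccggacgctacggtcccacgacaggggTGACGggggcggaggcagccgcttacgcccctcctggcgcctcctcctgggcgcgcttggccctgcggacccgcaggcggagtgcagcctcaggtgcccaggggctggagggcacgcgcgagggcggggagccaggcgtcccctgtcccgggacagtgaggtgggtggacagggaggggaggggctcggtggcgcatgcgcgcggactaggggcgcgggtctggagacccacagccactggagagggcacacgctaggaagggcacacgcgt
Pparg window 1: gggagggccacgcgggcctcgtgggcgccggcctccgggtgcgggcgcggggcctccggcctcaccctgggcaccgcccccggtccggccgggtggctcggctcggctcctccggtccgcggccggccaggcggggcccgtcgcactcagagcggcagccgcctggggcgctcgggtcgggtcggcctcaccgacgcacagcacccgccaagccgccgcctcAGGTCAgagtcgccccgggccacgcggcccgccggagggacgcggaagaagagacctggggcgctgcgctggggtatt
Pparg window 2: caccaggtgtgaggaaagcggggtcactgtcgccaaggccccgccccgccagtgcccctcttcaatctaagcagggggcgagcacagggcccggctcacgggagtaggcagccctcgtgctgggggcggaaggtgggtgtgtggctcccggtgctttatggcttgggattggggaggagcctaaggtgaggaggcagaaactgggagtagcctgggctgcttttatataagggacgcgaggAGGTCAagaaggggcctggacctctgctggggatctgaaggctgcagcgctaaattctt
Pparg window 3: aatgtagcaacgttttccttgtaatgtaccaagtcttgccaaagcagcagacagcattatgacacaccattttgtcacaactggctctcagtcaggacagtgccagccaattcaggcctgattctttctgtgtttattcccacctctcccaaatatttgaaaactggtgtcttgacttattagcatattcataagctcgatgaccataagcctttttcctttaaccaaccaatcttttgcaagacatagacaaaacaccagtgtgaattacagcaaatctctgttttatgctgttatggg

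The Ppara window held 1 CRE core, at position -222 from the start, and no nuclear receptor hexamer. Pparg windows 1 and 2 held 1 nuclear receptor hexamer each, at positions -28 and -9, and no CRE core, and window 3 held neither. Of all 32851 promoter windows of this length, 20.8% hold TGACG, which is part of the full element, and 16.3% hold AGGTCA. The full ATF/CRE palindrome TGACGTCA was in 0 of the 11 receptor windows (1.79% of all windows), and AGGTCANAGGTCA, the direct repeat spaced by 1 base that PPAR and RXR pairs bind, was in 0 as well (0.0396% of all windows). Among the other receptors, Ppard and Rxrb each had 1 window with a CRE core, and Rxra and Rxrg each had 1 window with a nuclear receptor hexamer. The windows differed in base content, from 74.7% G and C for Ppara to 40.3% for Pparg window 3. A match is a string of letters in a short window and does not show binding.

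Genes known to be switched on by PPARα in fatty acid oxidation and ketogenesis were mostly higher in KO. Of 36 listed genes 33 were measured, 29 with a positive difference (87.9%, against 53.0% of all genes). Nominally 15 were higher (45.5%, against 4.99% of all genes) and 0 lower (against 2.48%), with 0 past adjustment over all genes. The median log2 difference was 0.43, against 0.012 over all genes. Acaa2, the thiolase that ends the mitochondrial oxidation cycle, was at 11.78, 11.72 and 12.13 in the KO mice, against 11.11, 10.90 and 10.81 in the WT mice, 1.91-fold higher. Hadhb, the thiolase subunit of the trifunctional protein, was 1.66-fold higher, and Acadvl, the dehydrogenase of very long chains, 1.65-fold. In the list 15 of the 33 genes had every KO array above every WT array (background 7.96% of all genes). They were the 15 nominal genes, and a small p favours such separation, so it adds no support of its own.

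Plin5, which tethers lipid droplets to mitochondria, had nearly the same value in all KO mice (7.82, 7.81 and 7.86), against 7.40, 6.92 and 6.81 in the WT mice. Pdk4, a kinase that spares glucose by shutting pyruvate dehydrogenase, was at 12.13, 11.70 and 12.46 in KO and at 11.33, 9.82 and 11.03 in WT, 2.59-fold higher, and its difference of 1.37 was 0.92 without WT replicate 2. Ehhadh, the bifunctional enzyme of peroxisomal oxidation, was 1.46-fold higher, and Ucp3, a mitochondrial carrier of muscle and brown fat, 1.72-fold. Targets that are best known from liver were mixed. Fgf21, a hormone of fasting, was at 5.51, 5.54 and 5.36 in KO and at 5.32, 5.26 and 5.50 in WT, and Cyp4a14 and Creb3l3 differed by 0.060 and -0.0036. Cyp4a10, a fatty acid hydroxylase, was nominally higher, at 4.37, 4.44 and 4.64 in KO and at 4.22, 3.96 and 4.13 in WT. Fgf21 and Cyp4a10 were dim, below the array medians of 6.41 to 6.49 on all arrays, so their values say little. Cpt1a, the liver form of the carnitine transferase that lets fatty acids into mitochondria, differed by -0.17 with overlapping groups.

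The mean level of this list, centred on the 6 arrays, was 0.17, 0.0085 and 0.42 in the KO mice, against -0.097, -0.19 and -0.31 in the WT mice. No WT array reached the lowest KO array, and the highest, KO replicate 3, was the array with the fewest lymphocyte transcripts. Without KO replicate 3 the list had 12 nominally higher genes and a median of 0.27, and with the lymphocyte level as a covariate it had 8 and 0.22. Over all genes the nominally higher count fell as well, from 995 to 619 without KO replicate 3 and to 474 with the covariate. KO replicate 2 was the lowest KO array in the list and in Ppara alike.

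Genes that PPARγ maintains for fat storage and adipokines were closer between the groups. Of 30 listed genes 28 were measured, 22 with a positive difference (78.6%, against 53.0% of all genes). Nominally 2 were higher (7.14%, against 4.99% of all genes) and 1 lower (against 2.48%). The median was 0.14. Without KO replicate 3 it was 0.051 with 0 genes nominally higher, without WT replicate 3 it was 0.077, and without KO replicate 2 it was 0.22 with 6; the count was also 0 without KO replicate 1. Fabp4, the fatty acid carrier of fat cells, was at 12.66, 12.62 and 12.78 in KO and at 12.61, 12.64 and 12.56 in WT. Plin1, the main coat protein of fat droplets, differed by 0.16, Lpl, which frees fatty acids from lipoproteins, by -0.045, the fatty acid transporter gene Cd36 by 0.065, the droplet fusion gene Cidec by -0.083 and the adipokine gene Adipoq by -0.0090. Groups overlapped for all 6 of these genes. Trarg1, a regulator of glucose transporter traffic, was 1.35-fold higher, and Scd1, which desaturates fatty acids, 1.17-fold. Adig, a small adipocyte protein, differed by -0.65, at 10.43, 9.56 and 10.24 in KO and at 10.57, 11.12 and 10.47 in WT, with every KO array below every WT array, and by -0.39 without KO replicate 2. The list's mean level was 0.057, -0.17 and 0.27 in KO and -0.021, 0.046 and -0.18 in WT, so the groups overlapped, and KO replicate 3 was again the highest array. With the lymphocyte level as a covariate the median was -0.0070.

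Targets shared by the PPARs gave a median of 0.49 over 9 measured genes, of which 5 are also in the PPARα list. Of the 9, 4 were nominally higher (44.4%, against 4.99% of all genes): Acaa2, Acadvl, Pdk4 and Plin2, a coat protein of lipid droplets, which was 1.29-fold higher. Acaa2, Acadvl and Pdk4 were already given above with the PPARα list, so their calls are not new here. Being listed as shared targets, they do not set PPARα apart from the other PPARs. Angptl4, a secreted inhibitor of lipoprotein lipase, was at 11.16, 10.24 and 11.14 in KO and at 10.82, 9.36 and 10.59 in WT, with overlapping groups, and its difference of 0.59 was 0.14 without WT replicate 2. The list's median was 0.31 without KO replicate 3.

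**Figure D4:**
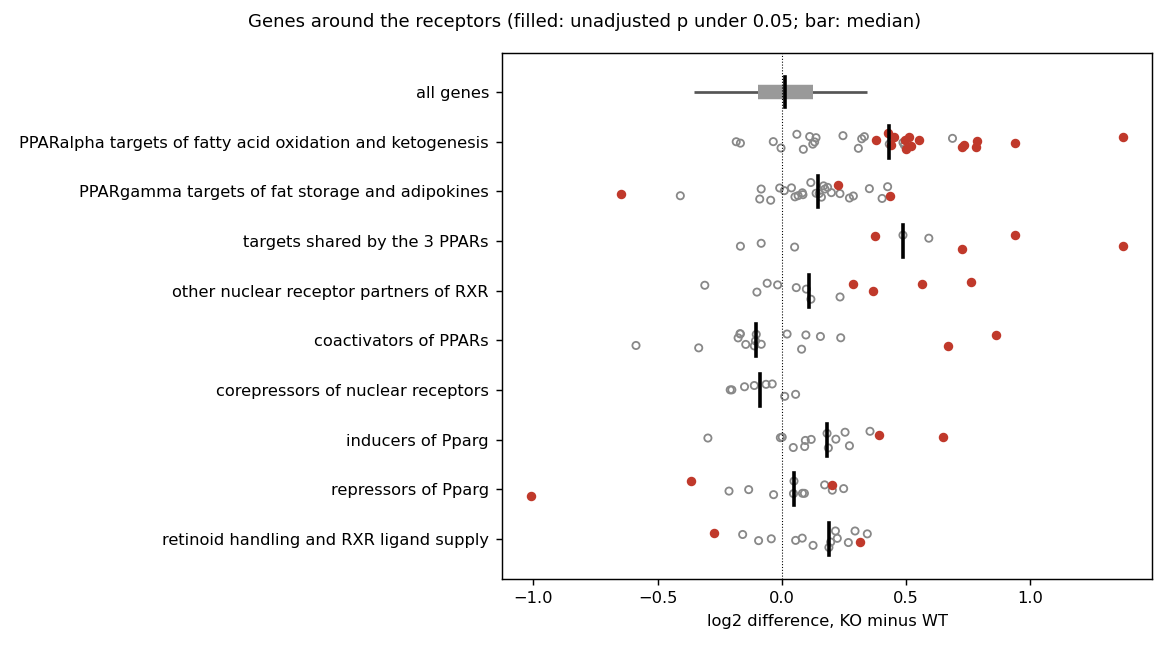
Log2 difference, KO minus WT, of each measured gene in 9 lists of PPAR and RXR targets, partners and regulators, with filled points at an unadjusted p under 0.05 and bars at the median; for all genes a thick line spans the quartiles and a thin line the percentiles 5 to 95. The PPARα target list has its median at 0.43 and the PPARγ target list at 0.14, against 0.012 for all genes.

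Most coactivators and corepressors differed little. Of 17 coactivators 7 were positive (41.2%, against 53.0% of all genes), with a median of -0.10. The 2 nominally higher ones (11.8%, against 4.99% of all genes) are the PGC-1 coactivators, which dock on PPARs and raise mitochondrial gene expression. Nominally lower were 0 of the 17 (against 2.48% of all genes). Without KO replicate 2 this count was 5, and over all genes it rose from 494 to 1689. Ppargc1a was at 8.13, 7.90 and 8.82 in KO and at 7.60, 7.48 and 7.18 in WT, 1.82-fold higher. Ppargc1b was at 8.19, 8.36 and 8.46 in KO and at 7.92, 7.81 and 7.27 in WT, 1.59-fold higher, and its KO values varied less (SD 0.14) than those of Ppargc1a (SD 0.48). Helz2, a helicase that coactivates PPARs, differed by -0.59, with KO replicate 3 lowest at 7.69, and by -0.28 without that array. Tle3, a coregulator that favours white over brown fat genes, differed by -0.18. These 2 of the 17 had all KO arrays below all WT arrays (background 5.97% of all genes). The steroid receptor coactivator Ncoa3 differed by -0.33, with overlapping groups. Of 8 measured corepressor genes 2 were positive (25%, against 53.0% of all genes), and the median was -0.088. Among them 0 were nominal in either direction (against 4.99% higher and 2.48% lower of all genes). Gps2 and Tbl1xr1, subunits of a corepressor complex of nuclear receptors, differed by -0.20 and -0.21. These 2 of the 8 also had all KO arrays below all WT arrays (background 5.97% of all genes). Gps2 differed by -0.13 without WT replicate 3, and Tbl1xr1 by -0.091 without KO replicate 3. The receptor-like repressor Nr0b2 and Nrip1, which restrains oxidative genes in fat, differed by -0.15 and -0.11, and by 0.0027 without KO replicate 1 and -0.0040 without KO replicate 2.

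Other partners of the RXRs include the thyroid hormone and retinoic acid receptors. Of 12 measured, 4 were nominally higher (33.3%, against 4.99% of all genes) and 0 nominally lower (against 2.48%), and the median was 0.11, or 0.18 without KO replicate 2. Rarb, a retinoic acid receptor that retinoic acid itself induces, was at 7.00, 6.53 and 7.14 in KO and at 6.15, 5.96 and 6.28 in WT, 1.69-fold higher. Its WT values were dim, below the array medians of 6.41 to 6.49. Thra and Thrb, the thyroid hormone receptors, were 1.29-fold and 1.48-fold higher, and Nr4a2, an orphan receptor that can pair with RXR, 1.22-fold. Rara ran the other way, at 8.12, 8.25 and 7.69 in KO and at 8.37, 8.27 and 8.35 in WT, a difference of -0.31 at an unadjusted p of 0.0778. Nr1h3, the liver X receptor of fat and macrophages, differed by 0.098 and by -0.087 without KO replicate 3. With the lymphocyte level as a covariate 2 of the 12 were nominally higher, and over all genes 474 were, against 995 without it.

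Genes of retinoid supply had a median of 0.19 over 15 measured, with 1 nominally higher (6.67%, near the 4.99% of all genes) and 1 nominally lower (against 2.48%). The higher count ran from 0 to 4 with each array left out, highest without KO replicate 2. Over all genes it ran from 560 to 2068, also highest without KO replicate 2. The list's median was 0.082 without KO replicate 3 and 0.11 without WT replicate 2. Aldh1a3, which makes retinoic acid, was 1.24-fold higher, and Stra6, a receptor for the retinol carrier, differed by -0.27. Cyp26a1, which breaks retinoic acid down, was dim on all arrays (4.46 to 4.51 in KO, 4.22 to 4.38 in WT), and Adh1, an alcohol dehydrogenase that also oxidizes retinol, differed by 0.27, or 0.11 without KO replicate 3.

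Regulators that act on Pparg itself were also read. Of 15 inducers, all measured, 13 were positive (86.7%, against 53.0% of all genes), 2 of them nominally higher (13.3%, against 4.99%), and the median was 0.18. It came to 0.069 when WT replicate 3 was left out and to 0.077 when KO replicate 3 was. Ebf2, which brown and beige fat precursors use, was at 8.79, 8.52 and 9.05 in KO and at 8.26, 8.14 and 8.02 in WT, 1.57-fold higher, and Klf4, an early factor of fat cell formation, was 1.31-fold higher. Cebpb, which starts the adipogenic cascade, differed by 0.35, and Nr3c1, the glucocorticoid receptor, by 0.18, both with an unadjusted p above 0.05. Without WT replicate 3 these were 0.16 and 0.12, and Cebpb was 0.19 without KO replicate 1. Of 13 repressors 8 were positive (61.5%, against 53.0% of all genes), 1 was nominally higher (7.69%, against 4.99%) and 2 nominally lower (against 2.48%), and the median was 0.049. The 1 higher gene became 0 with any array left out, where 560 to 2068 of all genes were nominally higher. The lower count was 1 without KO replicate 3 and without WT replicate 2. Over all genes the lower count was then 378 and 405, against 494 with all arrays. Foxo1, which represses Pparg when insulin is low, was at 9.54, 9.66 and 9.57 in KO and at 9.90, 10.04 and 9.92 in WT, a difference of -0.36. Gata3, a zinc finger factor of precursors that T cells also use, was at 7.03, 7.25 and 6.33 in KO and at 7.58, 8.60 and 7.45 in WT. Its lowest array was the one with the lowest T cell marker level (-1.91 in KO replicate 3). Its highest, WT replicate 2, was the one with the highest level of the markers listed for mammary epithelium. The part of T cells and of epithelium in the Gata3 difference of -1.01, which was -0.65 without WT replicate 2, was not tested. Hes1, a Notch target, was 1.15-fold higher, and the stress factor Ddit3 differed by 0.25 with an unadjusted p of 0.0880, or by 0.14 without KO replicate 3.

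The genes whose pattern over the 6 arrays was most like that of Ppara were Cc2d2a, a gene of the ciliary transition zone, Thra, the phosphatase gene Dusp23, the orphan receptor gene Gpr146 and Dab2ip, a Ras GTPase activator. Their Pearson correlations with Ppara were 0.994, 0.993, 0.992, 0.990 and 0.988 over 6 arrays, out of 5079 genes compared, and their differences were smaller than that of Ppara, between 0.32 and 0.43. For Pparg they were Nampt, which makes NAD, Entpd5, Socs6, Mrps18c and Mrpl12, with correlations of 0.992, 0.990, 0.989, 0.987 and 0.980. With the group means removed, the correlations of these same genes were 0.963 to 0.997 for Ppara and 0.968 to 0.993 for Pparg. All of them rest on 6 arrays in 2 groups, and the top few of 5079 genes are high by selection.

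Set side by side, Ppara and Pparg were both highest in KO replicate 3 and lowest in WT replicate 3, and differed in the place of WT replicate 2. Centred adipocyte marker levels were -0.021, -0.024 and 0.14 in the KO mice, against -0.048, 0.13 and -0.17 in the WT mice, highest in KO replicate 3 and WT replicate 2 and lowest in WT replicate 3. WT replicate 2 was the array next to the highest for Pparg and next to the lowest for Ppara. Ucp1, the uncoupling protein of heat-producing fat, was at 9.36, 8.76 and 9.65 in KO and at 7.04, 5.97 and 6.05 in WT, and its highest WT array was WT replicate 1, as for Ppara.

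**Figure D5:**
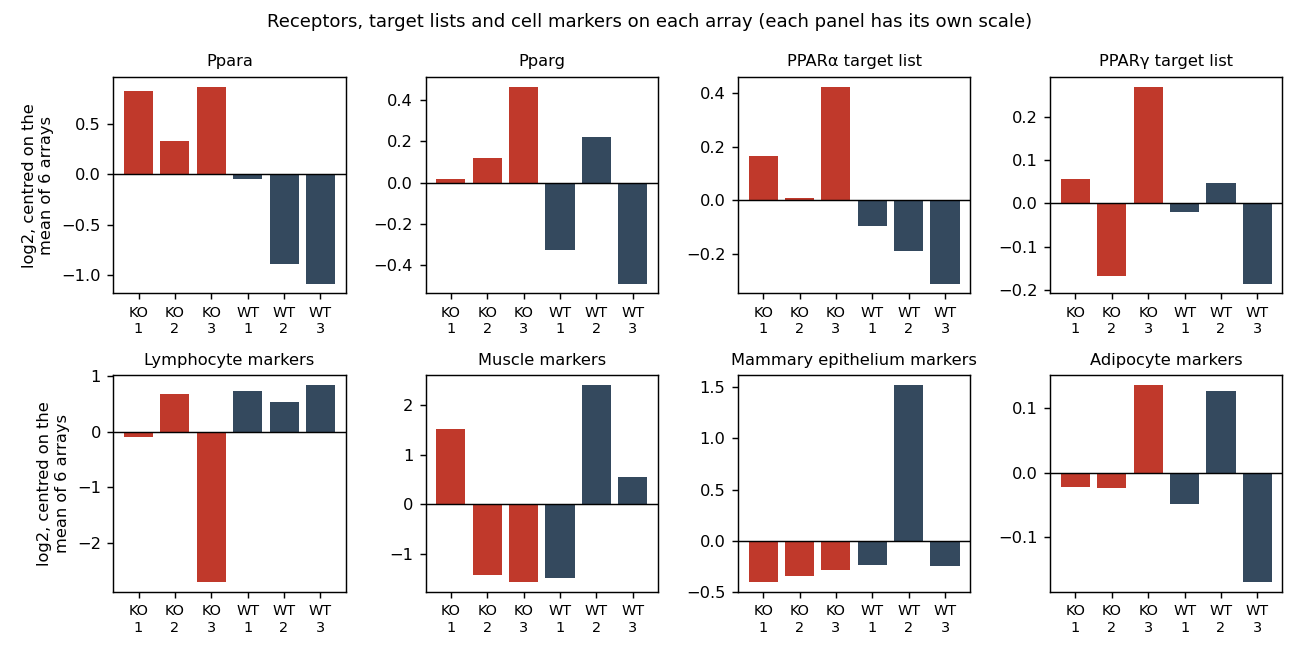
Values of Ppara and Pparg, mean levels of the PPARα and PPARγ target lists, and mean levels of lymphocyte, muscle, mammary epithelium and adipocyte markers on each array, KO left in red and WT right, all as log2 values centred on the mean of the 6 arrays; each panel has its own scale. Ppara and the PPARα target list are higher on all 3 KO arrays than on any WT array, and the lymphocyte panel shows KO replicate 3 at -2.70.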

How the data were processed

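RNA of inguinal fat was measured on 6 arrays, 1 per mouse (3 KO, 3 WT, grouped by sample title). The deposited values are log2 expression values per probe set, for which RMA, affy and limma are named, per the submitters' processing notes; their versions and options and the genome build are not given in the sources used here. RMA forces arrays to 1 distribution and so hides any common shift. Arrays have no depth, and their number sets the precision. By GEO's platform annotation, 21640 probe sets have 1 symbol, 1321 several and 11799 none, and the brightest probe set on average stood for its gene.

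For the comparison of KO with WT, limma 3.58.1 was run under R 4.3.3 without a filter (lmFit, eBayes), with Benjamini-Hochberg adjustment over 19937 genes and a threshold of 0.05. The test was tested on simulated data. Single contrasts used exact permutation over the 6 arrays. List levels per array average the genes after centring each on the 6 arrays.

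The members, lists, tests and alternatives were chosen with earlier results of these data known, and lists got no test of their own. Named genes were 26 fixed genes (the receptors, Atf7, Ucp1, targets and partners, of which 3 were not analysed here), up to 4 genes with the smallest p per list, and the 5 genes per receptor most like Ppara or Pparg, among genes above the median mean and SD, without predicted genes, olfactory, vomeronasal and antigen receptor genes; others named were chosen after their values were seen. Sequences came from RefSeq, with windows for 6 of 6 receptors.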

Additional observations from a re-analysis of the deposited data

How the results depend on the processing

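The difference of Ppara, that of Pparg and the contrast between them kept their direction under all 16 alternatives, the difference of Rxrb likewise, and no receptor passed adjustment over all genes under any of them. Limma called 1 gene, Atf7 (-1.41), lower with the mean of all probe sets and 2 probe sets lower (0.00575%) with all probe sets tested, and otherwise 0. At an unadjusted p under 0.05, 618 genes were higher and 253 lower with dim genes left out, 1615 and 1329 with array weights, 474 and 329 with lymphocyte score as covariate, and 605 and 303 with the muscle score; 987 were lower over all probe sets. Without each array in turn these counts ran from 560 to 2068 and from 192 to 1689, highest without KO replicate 2. The unadjusted counts with dim genes left out are over fewer genes; for the others the cause was not tested.

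With lymphocyte score as covariate the difference was -0.045 for Ppard, -0.083 for Rxra and -0.24 for Rxrg. List medians were then 0.22 for PPARα targets, -0.0070 for PPARγ targets, 0.26 for shared targets, 0.015 for coactivators, 0.063 for inducers of Pparg and 0.035 for retinoid genes. Without each array in turn Ppard ran from -0.042 to 0.10, Rxra from -0.017 to 0.21 and Rxrg from -0.091 to 0.45. List medians ran from 0.31 to 0.69 for shared targets, 0.11 to 0.18 for RXR partners, -0.12 to -0.032 for coactivators, -0.14 to -0.031 for corepressors and 0.082 to 0.22 for retinoid genes. The RXR partner median was 0.23 with dim genes left out and 0.17 with array weights. Adipoq, near 0, was 0.0080 after quantile normalization, 0.018 with arrays shifted to a common median, 0.0098 with array weights, 0.011 with the muscle score and between -0.12 and 0.10 without each array in turn. Cd36 was -0.036 and Nr1h3 -0.18 with the lymphocyte score. Without each array in turn Lpl ran from -0.11 to 0.012, Cidec from -0.17 to 0.049, Nr1h3 from -0.087 to 0.24 and Nr0b2 from -0.25 to 0.0027. The cause of these shifts was not tested.

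Replicate numbers do not mark pairs in the labels, and deviations of same-numbered KO and WT arrays correlated at -0.14, -0.079 and -0.045 across genes. With the replicate block 917 genes were higher and 466 lower at an unadjusted p under 0.05, 0 passed adjustment, and the adjusted p of Ppara was 0.644. The replicate block changed no call of a receptor. The array scale gives no count of molecules, so the 3 mice per group set the precision.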

Other observations

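Vnn1, a pantetheinase known as a PPARα target in liver, was at 8.71, 7.83 and 9.09 in KO and at 8.31, 7.10 and 8.16 in WT, with overlapping groups. Its lowest arrays in each group were KO replicate 2 and WT replicate 2.

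Rbp7 and Klb, which fat cells express and which are in the PPARγ list, spread widely among the KO mice. Rbp7, a retinol carrier, was at 8.35, 7.65 and 9.43 in KO and at 8.08, 7.82 and 8.25 in WT. Klb, the coreceptor of Fgf21, was at 9.26, 8.41 and 9.98 in KO and at 8.94, 9.10 and 8.91 in WT. In both genes KO replicate 2 was the lowest KO array and KO replicate 3 the highest, the same order as for Rxrg and Rxra. These 3 genes were chosen after their values were seen.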
